A study of Homo sapiens with 8 samples.

Results

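SERPINA1, SERPINE2, SERPINH1, SERPINB1, SERPINB6, SERPINB8, SERPINB9, SERPINF1 and SERPING1 encode members of the serpin family of protease inhibitors, and their transcripts were followed here in 8 RNA-seq libraries of a lung cancer cell line. The 9 genes were taken by gene name from a table of 58735 genes, and all 9 passed the filter on low counts, which kept 14621 genes. They were chosen by name with their counts in these libraries and earlier fold changes between the groups known, and no threshold was stated. Their levels and their differences between the groups are therefore given as a description, without a test of their own.

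The libraries came from cells labelled A549, an established human non-small cell lung cancer line. Control cells were transduced with an empty lentiviral vector (EV, n = 4), and the other cells with a lentivirus that overexpresses KRT19 (KRT19-OVE, n = 4). KRT19 encodes keratin 19, a filament protein of simple epithelia. Per the study's methods, the KRT19 construct carried a Flag tag and both transduced lines went through puromycin selection. Cells of both groups grew in RPMI-1640 with 10% fetal bovine serum, and nothing in the labels says whether the replicates were separate cultures. Transduced cells were used as a group, and how many clones or integrations they held was not given. Total counts ran from 14073065 to 17054364 per library. KRT19 itself had 1 to 5 counts in EV and 4353 to 5147 in KRT19-OVE libraries, so no library went against its group label. KRT19-OVE replicate 3 lay farthest from its group, with a standard deviation of 0.213 in its log2 deviations over all genes against 0.175 to 0.199 in the other 7 libraries.

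The labelled cell type was checked against marker genes. KRT8 and KRT18 were expressed, at 189 to 231 and 274 to 347 CPM (read counts relative to the scaled library size). EPCAM and CDH1, which mark epithelial cells, reached at most 3 and 1 counts. CDKN2A lies in a locus known to be deleted in A549, and it was at 94.2 to 108 CPM. Of the 10 genes of the antioxidant and aldo-keto reductase program typical of A549, 5 passed the filter, and AKR1B10 and ALDH1A1 reached at most 14 and 3 counts. The surfactant genes SFTPA1, SFTPA2, SFTPB and SFTPC had 0 counts in all libraries, which allows up to 0.176 to 0.213 CPM (3 counts per library). The extraction text names retina, and 8 listed retina genes summed to 0.765 to 1.81 CPM in EV and 0.845 to 1.12 CPM in KRT19-OVE libraries. Most of this came from NRL, which passed the filter with 9 to 24 counts, while SAG and RCVRN were at 0. The cells are therefore called by their label only.

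Serpins share a fold with an exposed loop that a protease attacks as if it were a substrate. Cleavage of the loop swings it into the body of the serpin and leaves the protease trapped and distorted, so each inhibitor molecule works a single time. Secreted serpins hold proteases of blood, complement and leukocytes in check, clade B serpins stay inside cells, and a few members, SERPINH1 and SERPINF1 among them, have lost the inhibitory function. In the lung, SERPINA1 is best known as the shield of the alveoli against neutrophil elastase.

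Promoter sequence was read for the members from RefSeq (GRCh38.p14), as the 250 bases before each annotated transcript start. Windows were found for 7 of the 9 members, 13 in all, and SERPINF1 and SERPING1 had none. SERPINA1 is shown because it was the 1 member whose groups did not overlap, and because it has more than 1 promoter. The stretch shown is the part of its upstream window outside annotated exons (chr14:94390694-94390885, minus strand), with a GC box in capitals. SERPINH1 is shown because it is a heat shock gene with the highest level of the members per kilobase of deposited gene length. Its stretch (chr11:75562166-75562195, plus strand) has the core of a heat shock element in capitals.
SERPINA1 upstream start: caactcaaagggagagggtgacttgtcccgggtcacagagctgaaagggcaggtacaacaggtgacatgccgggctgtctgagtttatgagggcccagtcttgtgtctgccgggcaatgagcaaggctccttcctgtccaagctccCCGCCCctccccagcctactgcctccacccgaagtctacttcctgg
SERPINH1: cgtttccaactTTCCAGAAgtttctcggga

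The motifs were searched on both strands. The heat shock element core (TTCNNGAA) began 76 bases before the upstream SERPINH1 start and occurred in 6.62% of all 35116 windows. Among the members, a SERPINB6 window also held it, 248 bases before the start. The GC box (GGGCGG, printed as its reverse complement in SERPINA1) occurred in 42.6%. The upstream SERPINA1 window held 6 CpG dinucleotides and the downstream window held 11, against a median of 11 over all windows. Most other windows of the members held more, with 21 in SERPINB1, 27 in SERPINB9, 20 and 26 in SERPINH1, 6 and 28 in SERPINE2, and 3, 26, 34 and 34 in SERPINB6. SERPINB8 had 7 CpG, and matches to AP-1 (TGANTCA, 6.57% of windows) 185 and 28 bases before its start. Matches to the TATA box (TATAAA, 10.7%) began 142 and 140 bases before the SERPINB8 start and 30 bases before the SERPINB9 start. A match is a string of letters and not a bound site. The counts are per gene, so they do not tell which SERPINA1 start was used.

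The abundance of the members differed widely. Per kilobase of the deposited gene length, and as the mean of EV libraries, SERPINH1 was at 25.8 ± 0.790 and SERPINB6 at 19.0 ± 0.877 CPM per kilobase (SD, n = 4). SERPINA1 followed at 6.07 ± 0.214, SERPINB1 at 5.14 ± 0.142, SERPINB8 at 4.24 ± 0.207 and SERPINE2 at 3.56 ± 0.250 CPM per kilobase. SERPINF1, SERPINB9 and SERPING1 were lowest, at 1.33 ± 0.0656, 0.832 ± 0.0395 and 0.143 ± 0.0714 CPM per kilobase. Over all 8 libraries the ranges of SERPINA1 (3.95 to 6.37), SERPINB1 (3.98 to 5.34) and SERPINB8 (4.12 to 4.69) overlapped, so their order was not fixed, whereas the highest value of SERPINE2 was 3.77. SERPINH1, with a lowest value of 23.5, and SERPINB6, with a highest value of 20, did not overlap.

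This order depends on the gene length. The deposited length equalled the union of all annotated exons, which was 13201 bases for SERPINB6, whereas the median of its 20 protein-coding transcript models was 1372 bases. With the median transcript length, chosen after seeing the data, SERPINB6 came to 180 and SERPINH1 to 171 CPM per kilobase as the mean of all 8 libraries, and SERPINB8 (21.8) and SERPINE2 (18.1) passed SERPINA1 (17.2). SERPINB1 moved from 4.87 to 5.75, which placed it below SERPINF1 (from 1.25 to 5.91). SERPINB9, with a single transcript model, kept 0.807. Some transcript models are partial, so neither length gives the true level.

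**Figure D1:**
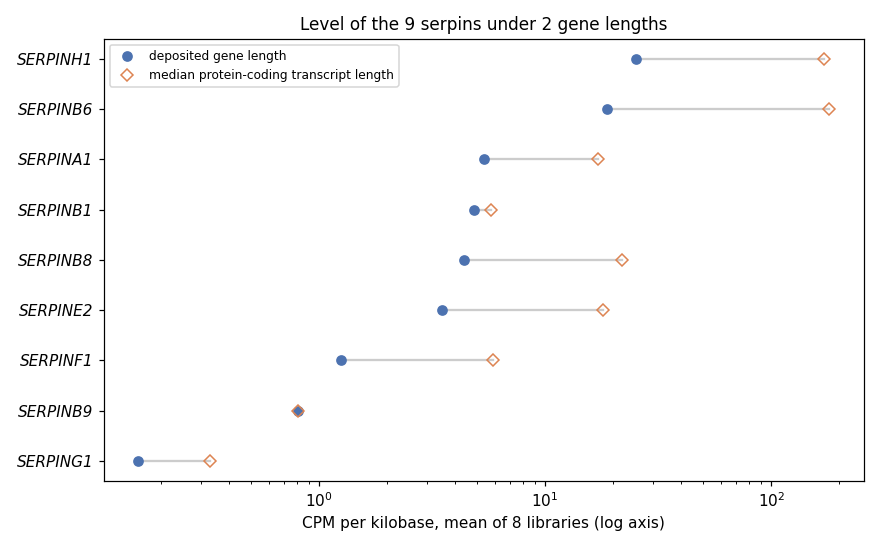
Mean level over 8 libraries, as CPM per kilobase on a log axis, of the 9 members, with the deposited gene length (circles) and with the median protein-coding transcript length (diamonds). SERPINB6 moves from 18.7 to 180, while SERPINB9 stays at 0.807.

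The secreted inhibitors were examined first. SERPINA1 (ENSG00000197249, minus strand, chr14:94376747-94390693, GRCh38) encodes alpha-1-antitrypsin, the main inhibitor of neutrophil elastase. In EV replicates 1 to 4 it was at 28.8, 29.5, 29.6 and 31.2 CPM. In KRT19-OVE replicates 1 to 4 it was at 23.7, 22.6, 19.4 and 24.9 CPM. Every KRT19-OVE library was below every EV library, and the lowest value was that of KRT19-OVE replicate 3. The means were 29.8 ± 1.05 CPM in EV and 22.6 ± 2.36 CPM in KRT19-OVE libraries (SD, n = 4 each), a log2 fold change of -0.40 ± 0.077 (SE) or a difference of -24.1%. Without KRT19-OVE replicate 3 the log2 fold change was -0.33, and over 15 alternative settings it lay between -0.45 and -0.33. SERPINA1 was the 1 member whose groups did not overlap, with lower values in KRT19-OVE libraries. Among all genes tested 3.44% had groups that did not overlap, 1.63% higher and 1.81% lower. It was also the 1 member with an unadjusted p under 0.05 in edgeR's quasi-likelihood test, which 5.41% of all genes reached, 2.85% higher and 2.56% lower. In that test none of the 9 passed the adjusted threshold of 0.05 over all genes, which 1 gene, KRT19, passed (0.00684%). SERPINA1 passed it with the DESeq2 Wald test and with a looser filter on low counts, and not under the other 13 alternatives. As the members were chosen with these results known, nothing is read from these counts. In bulk RNA, fewer cells with a transcript and less transcript per cell cannot be told apart.

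**Figure D2:**
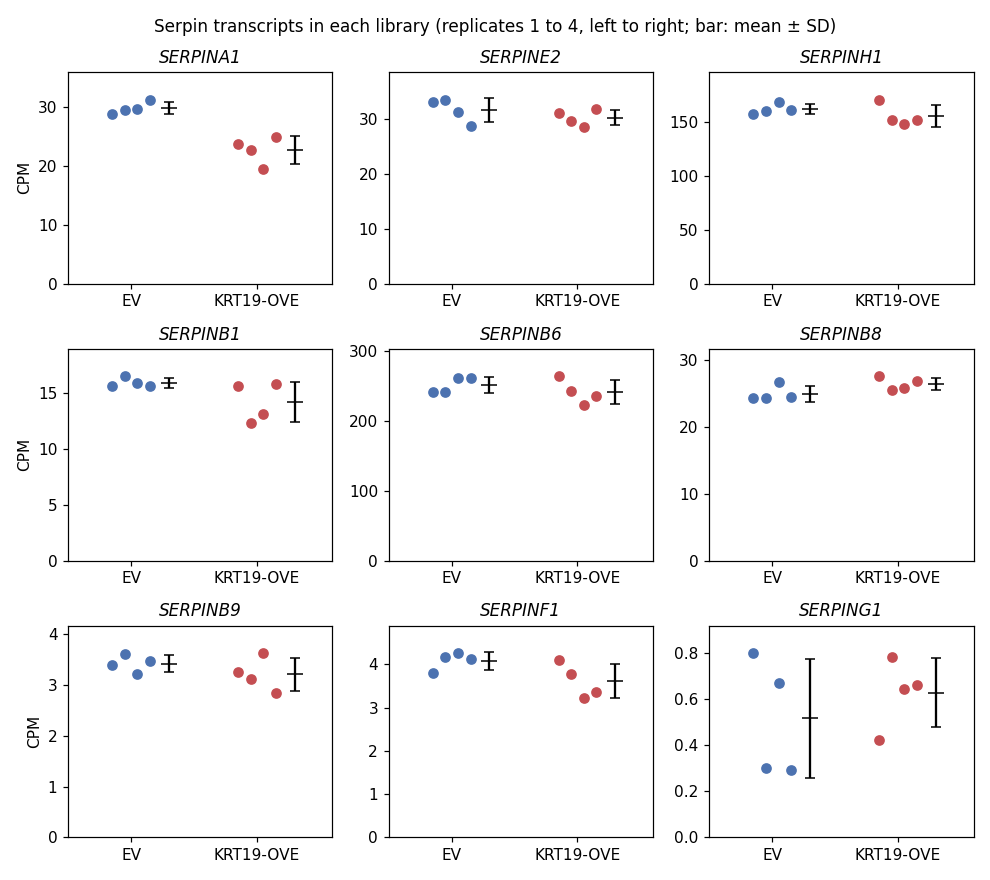
CPM of the 9 members in each library, with EV libraries in blue and KRT19-OVE libraries in red (replicates 1 to 4 from left to right), and the mean with its SD in black; each panel starts at 0. SERPINA1 spans 28.8 to 31.2 in EV and 19.4 to 24.9 in KRT19-OVE libraries, and in the other 8 panels the groups overlap.

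SERPINE2 (chr2:223975112-224039319, minus strand) encodes protease nexin-1, an inhibitor of thrombin and urokinase bound to the cell surface and matrix. It was at 33.1, 33.6, 31.3 and 28.7 CPM in EV replicates 1 to 4 and at 31.1, 29.7, 28.6 and 31.8 CPM in KRT19-OVE replicates 1 to 4. The groups overlapped over most of their range, with a log2 fold change of -0.062 ± 0.068 (SE). Over 15 alternatives this log2 fold change lay between -0.107 (without EV replicate 4) and -0.0035 (limma-voom with quality weights).

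SERPINF1 (chr17:1761959-1777574, plus strand) encodes pigment epithelium-derived factor, a secreted serpin without inhibitory function that restrains vessel growth. It was at 3.79, 4.16, 4.26 and 4.12 CPM in EV libraries and at 4.10, 3.77, 3.22 and 3.37 CPM in KRT19-OVE replicates 1 to 4. KRT19-OVE replicates 2, 3 and 4 were below all EV libraries and replicate 1 was within the EV range, and the log2 fold change was -0.18 ± 0.14 (SE). With a mean of 61.6 counts per library, counting alone gives a coefficient of variation of 12.7%, above the 4.93% and 11% observed within EV and KRT19-OVE.

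SERPING1 (chr11:57597387-57614853, plus strand) encodes C1 inhibitor, which controls complement and the contact system. It had 12, 5, 11 and 5 counts in EV and 7, 11, 11 and 10 counts in KRT19-OVE replicates 1 to 4. These few counts placed it at 0.516 ± 0.257 and 0.628 ± 0.150 CPM (SD, n = 4 each). Its log2 fold change of 0.29 ± 0.39 (SE) moved from 0.090 to 0.61 over 14 alternatives. Counting alone gives a coefficient of variation of 33.3% at its mean of 9 counts, against 49.9% and 23.9% observed within EV and KRT19-OVE.

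SERPINH1 (chr11:75562056-75572783, plus strand) encodes HSP47, a chaperone of the endoplasmic reticulum that binds folded procollagen. It was at 158, 160, 169 and 161 CPM in EV libraries and at 171, 152, 148 and 152 CPM in KRT19-OVE replicates 1 to 4. KRT19-OVE replicate 1 was the highest of all 8 libraries and the other 3 were below the EV range. The log2 fold change was -0.057 ± 0.054 (SE), and it was -0.105 without KRT19-OVE replicate 1 and -0.033 without KRT19-OVE replicate 3.

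The clade B serpins act inside cells, where they protect against proteases released from granules and lysosomes. SERPINB6 (chr6:2948159-2972165, minus strand), an inhibitor of cathepsin G, had the most counts of the 9 members, 3420 to 4449 per library. It was at 242, 241, 261 and 262 CPM in EV libraries and at 264, 243, 223 and 236 CPM in KRT19-OVE replicates 1 to 4. The groups overlapped, with a log2 fold change of -0.057 ± 0.056 (SE) that was -0.020 without KRT19-OVE replicate 3 and -0.10 without KRT19-OVE replicate 1.

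SERPINB1 (chr6:2832332-2842006, minus strand) inhibits neutrophil elastase, cathepsin G and proteinase 3 inside the cell. It was at 15.6, 16.5, 15.9 and 15.6 CPM in EV libraries. In KRT19-OVE replicates 1 to 4 it was at 15.6, 12.3, 13.1 and 15.8 CPM. KRT19-OVE replicates 2 and 3 were below all EV libraries and replicates 1 and 4 were level with them. The coefficient of variation was 2.75% in EV and 12.4% in KRT19-OVE libraries, where counting alone gives 6.44%, and the log2 fold change was -0.16 ± 0.092 (SE). Without KRT19-OVE replicate 1 or 4 it was -0.21 and -0.22, and SERPINB1 then had an unadjusted p under 0.05. Without KRT19-OVE replicate 2 or 3 it was -0.10 and -0.12.

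SERPINB8 (chr18:63969925-64019779, plus strand), an inhibitor of the proprotein convertase furin, was at 24.2, 24.3, 26.7 and 24.4 CPM in EV libraries and at 27.5, 25.5, 25.8 and 26.8 CPM in KRT19-OVE replicates 1 to 4. EV replicate 3 lay within the KRT19-OVE range and the other 3 EV libraries lay below it, and the log2 fold change was 0.084 ± 0.066 (SE). Its exons share 370 bases with HMSD on the same strand and 257 bases with an antisense gene, AC009802.1. HMSD had 151 to 184 counts, so reads of SERPINB8 and HMSD may have been split.

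SERPINB9 (chr6:2887266-2903280, minus strand) inhibits granzyme B, the protease by which cytotoxic lymphocytes kill. It had 43 to 62 counts per library. In EV replicates 1 to 4 it was at 3.39, 3.62, 3.22 and 3.47 CPM and in KRT19-OVE replicates 1 to 4 at 3.26, 3.13, 3.63 and 2.85 CPM. The groups overlapped, with a log2 fold change of -0.088 ± 0.15 (SE).

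Among the 9 members, 7 had a log2 fold change below 0 and 2 above 0. Their median was -0.062, against 0.0051 over all genes tested, of which 47.8% were below 0. The median of the members was -0.034 without KRT19-OVE replicate 3 and -0.10 without KRT19-OVE replicate 1. The summed CPM of the members was 509 to 542 in EV and 465 to 540 in KRT19-OVE libraries. The log2 fold change of each member kept its sign under every alternative in which the gene was tested. Except for SERPINB8, with 6.3% of its exon bases shared with HMSD and 4.4% with AC009802.1, the members overlapped no other gene. Words of 75 bases shared with other genes made up 8.01% of SERPINB8 and 2.03% of SERPINB9, and 0% of the other 7.

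**Figure D3:**
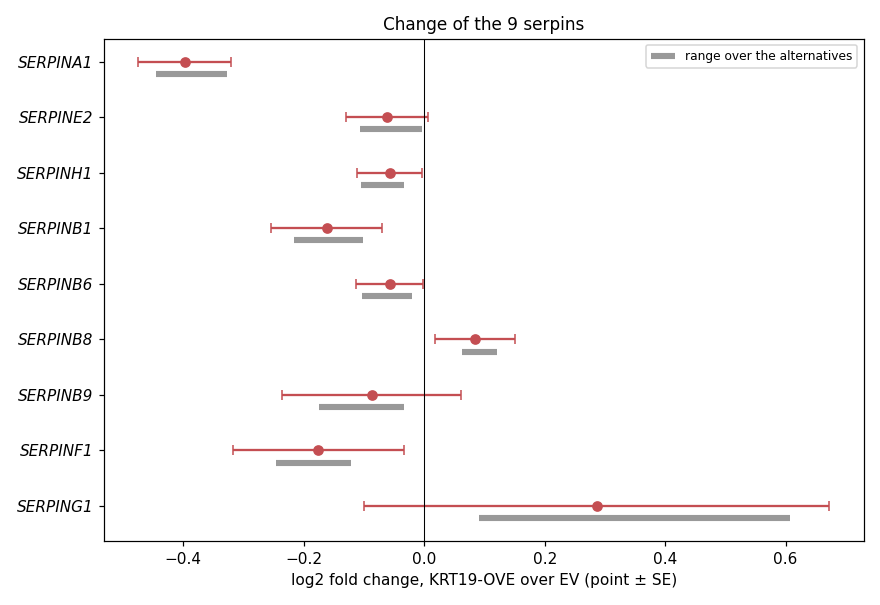
Log2 fold change of KRT19-OVE over EV with its SE for the 9 members (red), and below each point the range over the alternative settings (light grey bar). SERPINA1 lies at -0.40 with a range of -0.45 to -0.33, and SERPING1, with the fewest counts, has the widest bar, from 0.090 to 0.61.

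Next, the rest of the family was examined. Of 36 serpin genes listed by symbol, 12 passed the filter on low counts, and the other 24 had at most 10 counts in any library, of which 9 had 0 in all. Among the non-members that passed, SERPINB7 had a log2 fold change of 0.081 ± 0.094 and SERPINI1, which encodes neuroserpin, 0.073 ± 0.11 (SE). Neither had an unadjusted p under 0.05.

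Several serpin genes lie in clusters, and the counts of the neighbors of 6 members were compared. The cluster of clade A genes on chromosome 14 (94280455 to 94624055) holds 10 listed genes, and SERPINA1 was the 1 that passed the filter, with 3356 counts over the 8 libraries. Its neighbors SERPINA2 and SERPINA11 had 2 and 1 counts in total, and SERPINA10, the gene of the cluster with the next most counts, had 42. In the clade B cluster on chromosome 18 (63476761 to 64019779), SERPINB7 (1637 counts) and SERPINB8 (3279) passed, and 5 of the 10 genes had 0 counts. On chromosome 6 (2832332 to 2972165) all 3 genes of the cluster passed, with 1929 counts for SERPINB1, 426 for SERPINB9 and 31534 for SERPINB6. On chromosome 17, SERPINF1 had 493 counts and its neighbor SERPINF2, which encodes the inhibitor of plasmin, had 22.

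**Figure D4:**
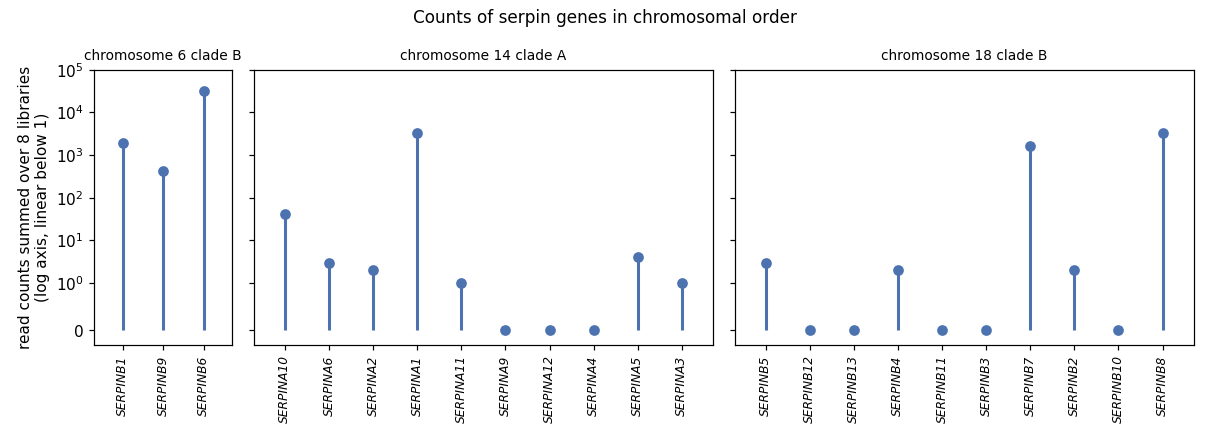
Read counts summed over 8 libraries for the listed serpin genes of 3 clusters, in chromosomal order, on an axis that is logarithmic above 1 and linear below it. SERPINA1 stands at 3356 in a clade A cluster where the gene with the next most counts, SERPINA10, has 42, while all 3 genes of the chromosome 6 cluster have at least 426.

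The proteases that serpins act on were then compared. Of 39 listed serine proteases, 10 passed the filter, with a median log2 fold change of -0.077, and 1 had an unadjusted p under 0.05, against 5.41% of all genes (3.44% without overlap). This was HTRA1, a secreted serine protease, with 24.2 ± 1.69 CPM in EV and 20.2 ± 1.76 CPM in KRT19-OVE libraries (SD, n = 4 each). Its groups did not overlap, and it differed by -0.26 ± 0.080 on the log2 scale (SE). It did not pass the adjusted threshold over all genes. PLAU, which encodes urokinase, was the most abundant per kilobase, at 263 and 257 CPM, followed by FURIN, the target of SERPINB8, at 105 in both groups, and PRSS23 at 203 and 191 CPM. Their log2 fold changes were -0.034 ± 0.050, -0.00079 ± 0.061 and -0.092 ± 0.048 (SE). PRTN3, which encodes proteinase 3, had 7 to 15 counts, and of the leukocyte proteases listed it was the 1 that passed the filter. The defining genes of leukocytes were near 0. PTPRC and CD3E had at most 1 and 0 counts, and the 8 listed leukocyte markers summed to 0.865 to 1.81 CPM in EV and 1.70 to 2.18 CPM in KRT19-OVE libraries, mostly through ITGAM. Their part in these results was not tested.

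Of 9 receptors that clear or bind serpins and their complexes, 7 passed the filter and 1, VLDLR, had an unadjusted p under 0.05, where the log2 fold change was -0.15 ± 0.066 (SE), with overlapping groups. Of all genes tested 5.41% reached that p. The median log2 fold change of the 7 was -0.061. VLDLR no longer reached that p with the replicate block or without EV replicate 1, 2 or 4 or KRT19-OVE replicate 3 or 4. PLAUR, the urokinase receptor, and PNPLA2, a lipase that binds the SERPINF1 product, had log2 fold changes of -0.10 ± 0.055 and 0.036 ± 0.067 (SE).

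Around SERPINH1, 23 of 29 collagen chains, collagen-modifying enzymes and KDEL receptors passed the filter, and 1 was higher and 2 were lower at an unadjusted p under 0.05. Over all genes tested this share was 5.41%, and 3.44% had groups that did not overlap. The median log2 fold change of the 23 was -0.059. P4HA1, a subunit of prolyl 4-hydroxylase, had 92.9 ± 3.98 CPM in EV libraries and 82.8 ± 3.17 CPM in KRT19-OVE libraries, and PLOD1, a lysyl hydroxylase, at 141 ± 3.91 and 120 ± 14.8 CPM (SD, n = 4 each). The log2 fold changes were -0.17 ± 0.054 and -0.23 ± 0.071 (SE). PLOD1 was lowest in KRT19-OVE replicate 3, at 102 CPM. COL5A2, a fibrillar collagen chain with 16 to 43 counts, was at 1.45 ± 0.260 and 2.14 ± 0.354 CPM, a log2 fold change of 0.56 ± 0.22 (SE). The groups of all 3 did not overlap, nor did those of KDELR3, a KDEL receptor that was at 36.6 and 34.0 CPM with an unadjusted p above 0.05, and none passed the adjusted threshold over all genes. The most abundant of the list per kilobase, P4HB, KDELR1 and PPIB, changed by -0.088 ± 0.054, -0.089 ± 0.050 and -0.042 ± 0.061 on the log2 scale (SE). The 8 listed fibroblast markers summed to 2.86 to 3.56 CPM in EV and 2.18 to 3.98 CPM in KRT19-OVE libraries, mostly through COL1A1, and their part in these results was not tested. COL1A1 had 21 to 54 counts and COL1A2 at most 1, so 1 chain of the type I collagen that HSP47 is known to bind was at the floor.

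Of 25 regulators and secretory factors of SERPINA1, 20 passed the filter, with a median log2 fold change of -0.016, and 1, the oncostatin M receptor gene OSMR, had an unadjusted p under 0.05, a share near the 5.41% of all genes. OSMR had 168 ± 5.64 CPM in EV libraries and 152 ± 11.2 CPM in KRT19-OVE libraries (SD, n = 4 each), with overlapping groups and a log2 fold change of -0.14 ± 0.056 (SE). Without EV replicate 4 no gene of the list reached that p. The chaperones CALR and CANX and the cargo receptor SURF4 had the highest levels per kilobase, with log2 fold changes of 0.034 ± 0.048, 0.014 ± 0.052 and -0.079 ± 0.050 (SE). The liver factors that drive SERPINA1 in hepatocytes were looked at after their values were seen. HNF4A had at most 1 count in any library and FOXA2 had 0. FOXA3 had 3 to 14 counts and did not pass the filter, while HNF4G, FOXA1 and CEBPA passed it with 10 to 32, 51 to 71 and 58 to 96 counts. CEBPB was at 31.0 CPM and STAT3 at 118 CPM in EV libraries. All 11 hepatocyte markers, ALB among them, had at most 3 counts per library, so SERPINA1 was read in libraries nearly free of other hepatocyte transcripts.

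Of 23 protease inhibitors of other families, 7 passed the filter, with a median log2 fold change of -0.064, and 0 had an unadjusted p under 0.05 in edgeR with the settings reported here, which 5.41% of all genes reached. With upper-quartile normalization, with the looser filter and with limma-voom with quality weights there was 1 each. The cystatins CSTB and CST3 and the Kunitz inhibitor TFPI2 were the most abundant per kilobase, and changed by -0.048 ± 0.065, -0.063 ± 0.068 and -0.11 ± 0.093 on the log2 scale (SE).

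Finally, the genes whose log2 CPM followed SERPINA1 most closely over the 8 libraries were listed. Among 14620 genes these were TSC22D1 (Pearson's r = 0.958), CYTH3 (0.956), AL390719.1 (0.956), NPC2 (0.951) and JUNB (0.948). The points share the group difference and the libraries, and the 5 are the highest of many, so r is given as a description. All 5 were lower in every KRT19-OVE library than in any EV library, with log2 fold changes from -0.27 for AL390719.1 to -0.082 for CYTH3, each smaller in size than that of SERPINA1.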

How the data were processed

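The authors deposited raw read counts per gene for 8 libraries (4 EV, 4 KRT19-OVE), with no normalization, together with a gene length. The submitters' processing notes name Bowtie 0.12.2, featureCounts 1.5.0-p3, DESeq2 and build hg38, without roles, and the handling of strand and of reads matching several genes was not given in the sources used here. All 58735 identifiers were found in GENCODE 29, 58724 with the same start and end.

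The test was edgeR 4.0.16 in R 4.3.3 (filterByExpr, TMM, glmQLFit and glmQLFTest on the group, all 8 libraries, Benjamini-Hochberg over 14621 genes, two-sided). SE was derived from the fold change and the F statistic. Replicates within a group differed beyond sampling noise (12 pairs, chi-square per degree of freedom 2.67 to 12.4), and p-values measure only the spread between these libraries. Floors cover counting error only. In simulated data for this comparison, 88.0% of 200 genes given a log2 change of 1 and 66.5% of 200 given 0.5 were called among 14465 and 14463 genes, with 11 and 14 false calls.

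The members and the gene lists were chosen with earlier results of these data known. Named genes are the members, every other serpin that passed the filter, KRT19, the 3 genes of each list with the highest level per kilobase, every list gene with an unadjusted p under 0.05 and no overlap, and the 5 genes most correlated with SERPINA1. Some items that this rule names are not reported here. KDELR3, VLDLR, OSMR, PRTN3, SERPINA2, SERPINA10, SERPINA11, SERPINF2, HMSD, COL1A1, COL1A2 and the liver factors were named after their values were seen. Alternatives were DESeq2 1.42.0 (size factors or Wald test), upper-quartile scaling, limma-voom with sample quality weights (limma 3.58.1), filters that kept any gene with 1 count (looser) or genes reaching 5 CPM in 4 libraries (stricter), a replicate block and leaving out each library.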

Additional observations from a re-analysis of the deposited data

Results flagged for a closer look

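In 74 groups of 4 libraries (log2 CPM of the named genes), the outermost value was compared with its neighbor by Dixon's ratio (gap over range, 95% critical value for 4 values). The ratio passed 7 times, where chance gives about 3.7. Among the members, SERPINB8 was highest in EV replicate 3, with 4.75 on the log2 CPM scale where the remaining EV values were 4.60 to 4.62 (ratio 0.895). In KRT19-OVE replicate 3, 3 genes were lowest. These were KRT19 at 8.17 against 8.27 to 8.28 (0.949), PLAU at 7.89 against 8.04 to 8.05 (0.957) and KDELR1 at 7.44 against 7.60 to 7.62 (0.913). PRSS23 was lowest in EV replicate 4, at 7.58 against 7.69 to 7.70 (0.897). COL5A2 was lowest in EV replicate 1, at 0.25 against 0.73 to 0.81 (0.852). PLOD1 was highest in EV replicate 3, at 7.20 against 7.11 to 7.13 (0.853).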

How the results depend on the processing

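The log2 fold changes of the members kept their sign under all alternatives that tested them, and the stricter filter left out SERPINB9, SERPINF1 and SERPING1. SERPINA1 passed the adjusted threshold over all genes with the DESeq2 Wald test and with the looser filter, and no member did so elsewhere. The median of the members was -0.10 to -0.034 when each library was left out. Over all genes, 1 passed the adjusted threshold as reported, 5 with the DESeq2 Wald test, 8 with limma-voom with quality weights and 71 with the looser filter, and 1 to 5 when each library was left out (5 without KRT19-OVE replicate 3, 3 without EV replicate 1). Unadjusted p-values under 0.05 numbered 791, against 1337 with limma-voom with quality weights, 1559 with the looser filter and 451 with the replicate block, and 620 to 1228 when each library was left out (1228 without KRT19-OVE replicate 1). Of these 52.7% were higher as reported and 40.5% with upper-quartile scaling.

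At the same p, the members went from 1 to 2 without KRT19-OVE replicate 1 or 4 (range 1 to 2), and the other serpins from 0 to 1 with the looser filter. Serine proteases went from 1 to 2 with upper-quartile normalization and with the looser filter (1 to 2 when each library was left out). Clearance receptors went from 1 to 0 with the replicate block (0 to 1), collagen folding partners from 3 to 6 with limma-voom with quality weights and 5 with the looser filter (2 to 4), and SERPINA1 regulators ranged from 0 to 1. Other inhibitors went from 0 to 1 with upper-quartile normalization, with limma-voom with quality weights and with the looser filter (0 to 2). The cause was not tested. Libraries were not paired by number, since the deviations of EV and KRT19-OVE libraries with the same number correlated at -0.111, -0.0239, -0.159 and 0.0567, and 1 of 4 EV libraries correlated best with its own number. The replicate block kept 1 gene past the adjusted threshold.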
